A study of Homo sapiens with 6 samples.

Results

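The genes described here encode the microtubule motors and their core subunits: the kinesin heavy chains (KIF and KIFC genes), the kinesin light chains (KLC genes) and kinesin-associated protein, the dynein chains (DYNC and DYNL genes) and the dynactin subunits (DCTN genes). They were chosen by gene symbol, and a splicing event of such a gene was a member when its coverage score was LOW, OK or SOK and its reads came to at least 10 in each of 6 libraries. This gave 2772 events in 52 genes, out of 304901 events in the whole series that met the same conditions. The table listed 65 genes with matching symbols, and 13 of them had no event that passed, among them the antisense RNA gene DCTN1-AS1 and the kinesins KIF13A, KIF13B, KIF16B, KIF17 and KIF21B.

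The study asked how splicing changes when polyamine synthesis is inhibited. SKNBE2 cells, a human neuroblastoma line, were treated with 250 µM DFMO (difluoromethylornithine) for 4 days in the DFMO group, and the Control group was labelled only as control. DFMO blocks ornithine decarboxylase, the enzyme that makes putrescine. Each group had 3 libraries of stranded mRNA from total RNA, and all cells shared amplified MYCN and were of this 1 line.

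Kinesins and dynein are ATP-driven motors that walk along microtubules. Most kinesins move cargo or microtubules towards the growing plus end, cytoplasmic dynein moves towards the minus end with the help of dynactin, and in neurons the pair carries vesicles, mitochondria and signals along the axon. Several kinesins work in dividing cells instead, where they build the spindle, move chromosomes and bring about cytokinesis.

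Reads assigned to events came to between 77648922 and 103250467 per library, and a read can count in more than 1 event. The labels do not say whether replicates came from separate cultures, so the spread between these libraries may be technical. The p-values rest on this spread. For most introns and splice sites it was taken from a trend over all tested events of the class, not from the single event. By junction reads, the noradrenergic neuroblastoma markers CHGA, DBH, GATA3, ISL1 and PHOX2A rose, DDC fell, and HAND2, MYCN and TH did not pass the test. Of the 7 mesenchymal or fibroblast markers only VIM had an exon event with enough coverage, and it did not pass the test. No leukocyte or epithelial marker had one.

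The value for each event was the percent of transcripts that include an exon, retain an intron or use a splice site. Most motor gene events were close to constitutive. The mean over the 6 libraries lay below 5% in 1523 events and above 95% in 1169, and it lay between 5% and 95% in 80 events, or 2.89%, against 5.97% of all events of the series. After the first form of each splice-site event was set aside, 71 events in 29 genes were tested: 41 exons, 19 introns, 8 acceptor sites and 3 donor sites. A call needed both an adjusted p below 0.05 and group means at least 10 points apart, where a point is 1 percent of transcripts.

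Exon sequences are shown first for the exons that carry the splicing results, KIF21A and KIF23, and then for 3 tested microexons (exons of 3 to 27 nt) of other motor genes that did not pass the test. Capitals mark the alternative exon and lower case the 15 bases on either side of it in the spliced transcript, 5′ to 3′, from GENCODE release 29 transcripts on GRCh38.
KIF21A, 21-nt exon, chr12:39330242-39330262, minus strand: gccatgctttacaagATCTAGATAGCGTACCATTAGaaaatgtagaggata
KIF23, 137-nt exon, chr15:69421992-69422128, plus strand: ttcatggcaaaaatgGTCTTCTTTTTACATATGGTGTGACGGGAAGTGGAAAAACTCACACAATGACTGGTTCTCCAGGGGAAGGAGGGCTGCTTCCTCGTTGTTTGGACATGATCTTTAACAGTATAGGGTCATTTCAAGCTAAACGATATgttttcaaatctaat
KIF23, 42-nt exon, chr15:69425282-69425323, plus strand: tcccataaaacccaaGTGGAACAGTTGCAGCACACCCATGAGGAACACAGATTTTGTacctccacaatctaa
KIF1A, 27-nt exon, chr2:240734719-240734745, minus strand: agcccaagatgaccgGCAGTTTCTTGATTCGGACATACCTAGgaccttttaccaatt
KIF1B, 18-nt exon, chr1:10273014-10273031, plus strand: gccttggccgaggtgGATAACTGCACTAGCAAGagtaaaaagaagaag
DCTN1, 15-nt exon, chr2:74363614-74363628, minus strand: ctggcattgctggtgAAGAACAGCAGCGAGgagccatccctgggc

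Splicing events were called in 3 motor genes. Under DFMO the KIF21A 21-nt microexon was included more often. A KIF23 exon of 137 nt was skipped more often while another of 42 nt was included more often. A short KIF4A intron had a lower percent retained. Its intron reads stood mostly at 1 end, and no motor intron was called among introns with balanced ends. Of the 41 motor exons tested, 3 were called (7.32%), against 3.45% of all 7500 exons tested in the series. Of the 3, 2 were higher and 1 lower, where 2.71% of all exons were called higher and 0.747% lower. Of the 19 motor introns, 1 was called (5.26%), and it was lower, against 3.8% of all 3684 introns called and 2.06% called lower. No motor acceptor site was called by limma, against 1.23% of all acceptors. An unadjusted p below 0.05 was found for 2 of 8, against 319 of all 2434 acceptors (limma). These 2 are complementary forms of 1 KLC2 event and amount to 1 measurement. No donor site was called by limma either, against 2.21% of all donors. There, 1 of 3 had an unadjusted p below 0.05, against 256 of all 1721 donors (limma).

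The differences leaned upwards in both larger classes. DFMO libraries had the higher mean in 26 of 41 motor exons, with a median difference of 1.26 points, and in 60.3% of all exons, with a median of 1.24 points. They had the higher mean in 14 of 19 motor introns, with a median of 3.66 points, and in 53.2% of all introns, with a median of 0.33 points. The DFMO and Control values did not overlap in 11 motor exons (26.8%, against 26.2% of all exons) and in 7 motor introns (36.8%, against 24.7% of all introns). Several of the 19 introns had reads uneven between their ends (lowest p below 0.05 in the authors' test of balance). The intron numbers here include them and were not recounted among introns with balanced ends. The same held for 2 motor acceptor sites, the complementary KLC2 forms, and 1 donor site, against 17.7% of all acceptors and 17.7% of all donors. These are counts and medians of the motor events, and no test was made of the list.

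**Figure D1:**
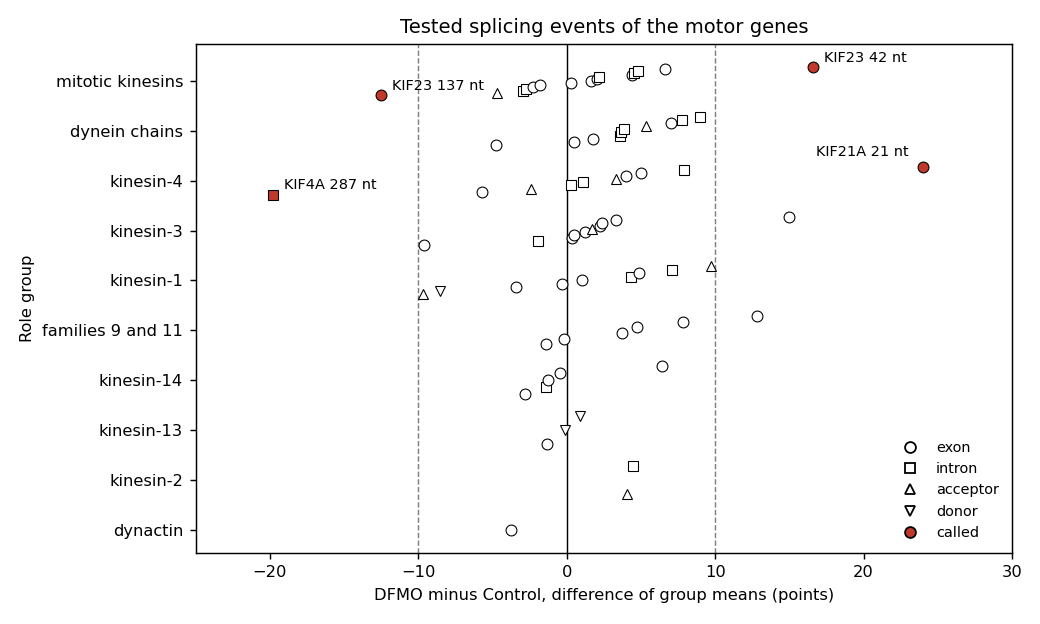
Difference of group means in points (DFMO minus Control) for each of the 71 tested motor gene events, by role group; the marker shape gives the event class, filled markers are called events, and dashed lines mark 10 points on either side of 0. The 4 called events belong to KIF21A and KIF4A (kinesin-4) and to KIF23 (mitotic kinesins).

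KIF21A is a kinesin-4 that slows microtubule growth at the cell cortex and in axons, and its heavy chain is mutated in an inherited eye movement disorder. Its 21-nt exon was included in 89.0%, 87.4% and 89.0% of transcripts in the DFMO libraries and in 63.9%, 62.4% and 67.2% in the Control libraries. Every DFMO library lay above every Control library, and the gap was much wider than the spread within either group. The means were 88.5% ± 0.892 in DFMO and 64.5% ± 2.48 in Control (SD, n = 3 each), a difference of 24.0 points, and the log2 odds of inclusion differed by 2.07 ± 0.16 (SE; adjusted p = 5.15e-06, limma). Skipping reads numbered 107, 107 and 102 in the DFMO libraries, against 255, 245 and 269 in the Control libraries. At the side of the exon listed first there were 500, 447 and 487 inclusion reads in the DFMO libraries, against 296, 234 and 310 in the Control libraries. At the other side there were 202, 159 and 182 in the DFMO libraries and 75, 95 and 136 in the Control libraries, so the sides were uneven in both groups but moved together. The exon lies in the coding sequence of 5 annotated protein-coding transcripts and is exon 23 of 37 in the longest of them. Its length is a multiple of 3, and leaving it out of that transcript kept the same stop codon.

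**Figure D2:**
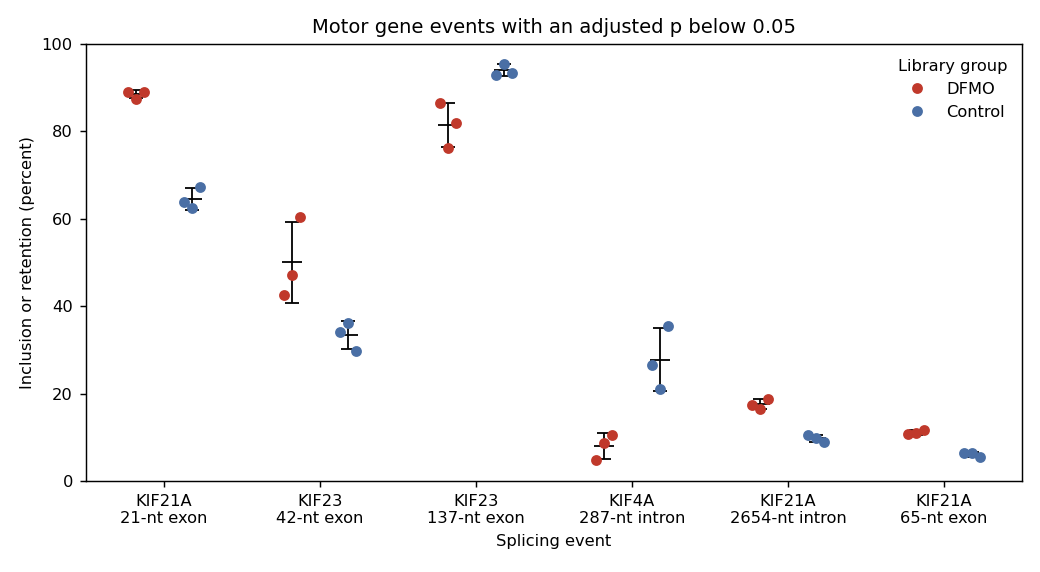
Percent inclusion (exons) or retention (introns) in each library for the 6 motor gene events with an adjusted p below 0.05; points are libraries, black bars are the group mean and SD. DFMO and Control points do not overlap in any of the 6 events, and the KIF21A 2654-nt intron and 65-nt exon differ by less than 10 points.

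A second region of KIF21A also moved, by less than 10 points. The 2654-nt intron at chr12:39320014-39322667 was retained at 17.5%, 16.6% and 18.9% in the DFMO libraries and at 10.5%, 9.94% and 8.96% in the Control libraries. The groups did not overlap, and the difference of 7.87 points had an adjusted p of 2.05e-05 (limma). That small value rests on the variance trend of the fit, and without the trend the adjusted p was 0.171 (limma). Its reads came almost wholly from 1 end. The end listed first had 202, 166 and 177 reads in the DFMO libraries and 100, 84 and 106 in the Control libraries, while the other end had 0, 1 and 4 reads in the DFMO libraries and 2, 0 and 3 in the Control libraries. These are not the counts of an intron covered evenly from end to end, and what the reads at the first end come from was not tested.

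Inside that intron lies a 65-nt exon, chr12:39321348-39321412, which matches no annotated exon exactly and overlaps an exon of 1 transcript. It was included at 10.8%, 11% and 11.8% in the DFMO libraries and at 6.36%, 6.57% and 5.51% in the Control libraries. All DFMO values were higher, by 5.03 points in the mean (adjusted p = 0.0347, limma), and the adjusted p lay between 0.0617 and 0.115 when any 1 of the 6 libraries was left out. It was 0.167 without the variance trend, 0.129 without the filter on the mean percent and 0.0542 with a term for replicate number (limma). The side listed second had 95, 81 and 90 reads in the DFMO libraries and 50, 45 and 50 in the Control libraries, and the first had 20, 23 and 12 in the DFMO libraries and 9, 8 and 14 in the Control libraries. Reads skipping the exon numbered 474, 422 and 383 in the DFMO libraries, and reads spliced across the intron 477, 420 and 387. The exon and intron events are thus not independent. With these events, 4 of 41 motor exons and 2 of 19 motor introns had an adjusted p below 0.05, where 5.72% of all exons and 8.58% of all introns did.

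The other 2 tested KIF21A exons did not pass the test. A 124-nt exon event, chr12:39318073-39318196, was included at 41.3%, 44.9% and 42.9% in the DFMO libraries and at 49.7%, 46.6% and 49.9% in the Control libraries (adjusted p = 0.109, limma). A 39-nt coding exon, chr12:39315932-39315970, was included at 13.9%, 9.95% and 13.2% in the DFMO libraries and at 8.97%, 8.39% and 7.81% in the Control libraries (adjusted p = 0.147, limma). Neither event had overlapping groups. The 4 KIF21A exons had 430 to 1024 reads per library, where the lowest over all tested motor events was 18.

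No microexon of the other motor genes was called, and those tested had fewer reads than the KIF21A exon. Of 29 motor microexons that passed the coverage conditions, 23 had a mean below 5%, 1 a mean above 95%, and 5 were tested. In KIF1A, a kinesin-3 that carries synaptic vesicle precursors, the 27-nt exon was included at 25.5%, 21.6% and 18.6% in the DFMO libraries and at 20.3%, 24.2% and 20.1% in the Control libraries. In KIF1B, a kinesin-3 that moves mitochondria and synaptic vesicle precursors, the 18-nt exon was included at 7.37%, 13.7% and 14.1% in the DFMO libraries and at 7.71%, 2.54% and 17.9% in the Control libraries. The groups overlapped in both genes.

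The DCTN1 15-nt exon belongs to the largest dynactin subunit, p150, which binds dynein and microtubules. It was included at 18.2%, 11.5% and 9.5% in the DFMO libraries and at 11%, 22.6% and 16.9% in the Control libraries, and the groups overlapped. DCTN1 shares its locus with an antisense gene, and whether the reads were assigned by strand is not given in the sources used here. A 23-nt exon of KIF1C, a kinesin-3 of vesicle transport, is not annotated and was included at 5.88%, 6.16% and 12.4% in the DFMO libraries and at 7.30%, 7.96% and 2.40% in the Control libraries. The adjusted p of these 4 microexons ran from 0.648 (KIF1C) to 0.973 (KIF1A) by limma, with differences of 0.37 points in KIF1A, 2.36 in KIF1B, 2.26 in KIF1C and -3.78 in DCTN1. Their log2 odds differences had an SE of 0.29 (KIF1A), 0.76 (KIF1B), 0.61 (KIF1C) and 0.49 (DCTN1), against 0.16 for the KIF21A exon. A shift was therefore easier to miss in them. The exons of KIF1A, KIF1B and DCTN1 are multiples of 3, like that of KIF21A.

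KIF23 is the mitotic kinesin of the centralspindlin complex, which bundles microtubules at the midzone and is needed for cytokinesis. Its 137-nt exon was included in 86.4%, 76.2% and 81.9% of transcripts in the DFMO libraries and in 93.0%, 95.5% and 93.4% in the Control libraries. All DFMO libraries were lower, and they were more spread out than the Control libraries. The means were 81.5% ± 5.10 in DFMO and 93.9% ± 1.35 in Control (SD, n = 3 each), and the difference of -12.5 points had an adjusted p of 0.00446 (limma). Skipping reads numbered 26, 53 and 31 in the DFMO libraries and 16, 9 and 18 in the Control libraries. The exon is coding in 5 annotated protein-coding transcripts and is exon 5 of 23 in the longest. It holds the codons of the P-loop, the ATP-binding motif of the motor domain, found by a search of the translated exon. Its length is not a multiple of 3. Leaving it out of that transcript put a stop codon in the new frame, ending 14 bases after the junction and 2400 bases before the last exon junction. Without DFMO replicate 2, the library with the lowest value, the difference was -9.84 points and missed the 10 points (adjusted p = 0.0208, limma).

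The 42-nt exon of KIF23 went the other way. It was included at 42.6%, 47.2% and 60.4% in the DFMO libraries and at 34.2%, 36.2% and 29.9% in the Control libraries. No DFMO value overlapped a Control value, and DFMO replicate 3 stood highest. The means were 50.1% ± 9.21 in DFMO and 33.4% ± 3.22 in Control (SD, n = 3 each), a difference of 16.6 points with an adjusted p of 0.0498 (limma), just under the threshold. The adjusted p was 0.0698 and 0.154 without DFMO replicates 2 and 3, taken singly, and 0.0962, 0.0726 and 0.163 without Control replicates 1, 2 and 3 (limma), so the call was lost each time. The exon is coding in 1 of 3 transcripts that hold it, and leaving it out of that transcript kept the same stop codon.

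Between the long form of KIF23 (CHO1) and the shorter MKLP1, the difference is an exon of 312 nt whose product binds actin. This exon, chr15:69440768-69441079, was included at 49.6%, 55.8% and 54.4% in the DFMO libraries and at 47.6%, 48.7% and 43.7% in the Control libraries. The DFMO values were all higher, by 6.64 points in the mean, and the event did not pass the test (adjusted p = 0.241, limma). The other 2 tested KIF23 exons, of 120 and 82 nt, were included at 92.0% or more in every library, with differences of 0.303 and 2.02 points.

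KIF4A is a chromosome-associated kinesin-4 that shortens midzone microtubules in dividing cells. Its 287-nt intron, chrX:70290151-70290437 on the plus strand, lies in the 5′ untranslated region of the 1 annotated transcript that contains it. It was retained at 4.76%, 8.82% and 10.6% in the DFMO libraries and at 26.7%, 21.2% and 35.6% in the Control libraries. Every DFMO library was below every Control library, and the Control libraries were the more spread out. The means were 8.07% ± 3.01 in DFMO and 27.8% ± 7.24 in Control (SD, n = 3 each), and the difference of -19.8 points had an adjusted p of 0.0113 (limma).

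This KIF4A event rests on few reads, 33, 37 and 26 in the DFMO libraries and 64, 40 and 61 in the Control libraries. Reads spliced across the intron numbered 30, 31 and 21 in the DFMO libraries and 37, 26 and 29 in the Control libraries. At the end listed second the intron had 2, 6 and 4 reads in the DFMO libraries, against 24, 12 and 31 in the Control libraries, and at the other end 1, 0 and 1 in the DFMO libraries and 3, 2 and 1 in the Control libraries. The retained reads thus stood mostly at 1 end in the Control libraries, and the lowest p of the authors' test of balance between the ends was 2.91e-04. The call was lost without DFMO replicate 1 (adjusted p = 0.056, limma), and without Control replicate 1 or Control replicate 3 (0.0529 and 0.088). KIF4B, a copy of KIF4A without introns, could share spliced reads with it, which was not tested.

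Among the kinesin-1 genes, which encode the main axonal transport motor and its light chains, no event passed the test. The light chain KLC1 selects cargo through its variable end, and 6 events at that end were tested. At the KLC1 donor site, the form with 27 more bases (chr14:103679519-103679545) was used at 44.4%, 40.0% and 39.8% in the DFMO libraries and at 48.6%, 50.7% and 50.6% in the Control libraries. The groups did not overlap, and the difference was -8.55 points (adjusted p = 0.132, limma). A 51-nt KLC1 exon was included at 36.7%, 36.3% and 37.7% in the DFMO libraries and at 29.2%, 32.8% and 34.1% in the Control libraries (adjusted p = 0.261, limma). The remaining 3 KLC1 exons differed by -3.44 to 1.05 points, and retention of the 21109-nt intron by 7.07 points (adjusted p = 0.118, limma). This intron starts at the longer donor form and holds all the tested KLC1 exons, so the 6 events are not independent. The lowest p of the authors' test of balance between its ends was 0.0126. In KLC2, another light chain, the acceptor form that adds 46 bases was used at 29%, 24.7% and 31.2% in the DFMO libraries and at 13.5%, 22.6% and 19.7% in the Control libraries. Its groups did not overlap, the difference was 9.69 points and the adjusted p was 0.357 (limma), and the form that adds 9 bases was its complement.

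In kinesin-3 and in families 9 and 11, larger mean differences came with wide spreads. A 249-nt coding exon of KIF1B, chr1:10326111-10326359, was included at 38.2%, 35.3% and 12.7% in the DFMO libraries and at 6.48%, 19.2% and 15.4% in the Control libraries. The groups overlapped through DFMO replicate 3, and the difference of 15 points did not pass (adjusted p = 0.282, limma). A 193-nt coding exon of the same gene was included at 89.0%, 81.6% and 86.0% in the DFMO libraries and at 90.8%, 97.0% and 97.7% in the Control libraries, a difference of -9.65 points without overlap (adjusted p = 0.112, limma). KIF9, a kinesin of cilia and flagella, had a 241-nt exon included at 14.3%, 39.7% and 34.7% in the DFMO libraries and at 16.4%, 24.4% and 9.33% in the Control libraries (difference 12.8 points, adjusted p = 0.407, limma). It had as few as 28 reads in a library.

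For the dynein chains, 9 of 10 tested events, in 4 genes, had the higher mean in DFMO, against 55.1% of all tested events of the series. Of the 10, 4 were in DYNC2LI1 and 2 were neighbouring introns of DYNC1LI2, so they are not independent. Other groups leaned either way, with 8 of 10 events higher in kinesin-3 and 1 of 5 in kinesin-14. These counts were not tested. None of the 10 dynein events passed the test, and 3 had an unadjusted p below 0.05, against 2932 of all 15339 tested events (limma). The widest difference was in a 1246-nt intron of DYNC2LI1, the light intermediate chain of the dynein that works inside cilia. It was retained at 11%, 18.6% and 9.43% in the DFMO libraries and at 3.60%, 0% and 8.47% in the Control libraries, a difference of 9 points (adjusted p = 0.177, limma). There was no overlap, at as few as 26 reads in a library. A 2115-nt intron of DYNC1LI2, a light intermediate chain of cytoplasmic dynein that links it to adaptors, was retained at 16.7%, 14.2% and 15.5% in the DFMO libraries and at 12.3%, 9.5% and 13.8% in the Control libraries (adjusted p = 0.2, limma). Its groups did not overlap at 317 reads or more per library.

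The widest differences in the remaining groups were smaller than 7 points. In KIFC3, a kinesin-14 that moves towards the minus end, a 29-nt exon was included at 80.7%, 77.7% and 84.0% in the DFMO libraries and at 78.0%, 77.3% and 67.9% in the Control libraries (adjusted p = 0.564, limma). In KIFAP3, the subunit that joins cargo to kinesin-2, a 957-nt intron was retained at 7.01%, 11.5% and 4.85% in the DFMO libraries and at 0%, 4.23% and 5.88% in the Control libraries (adjusted p = 0.425, limma). In KIF2C, a kinesin-13 that takes microtubules apart at kinetochores, a 123-nt exon was included at 93.3%, 89.7% and 93.8% in the DFMO libraries and at 96.9%, 95% and 89.0% in the Control libraries (adjusted p = 0.629, limma). The groups overlapped in all 3 events.

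The members outside the tested range were nearly always spliced 1 way in both groups. Of 2276 such events, again without the first forms of splice-site events, none differed by 10 points or more. The widest difference was in a 231-nt exon of DYNC1LI1, a light intermediate chain of cytoplasmic dynein. It was included at 83.6%, 99.0% and 91.2% in the DFMO libraries and at 100% in each of the 3 Control libraries. Its neighbour of 117 nt was included at 86.8%, 99.2% and 91.6% in the DFMO libraries and also at 100% in each Control library, so the same DFMO libraries were low at both exons. All 2772 motor events with a passing score in each library had 15 reads or more in every library, so the minimum of 10 reads removed none of them.

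The table holds no gene counts. As a stand-in for expression, the reads at the exon events of a gene were averaged on the scale log2(1 + scaled reads), where each library was scaled to 1e+06 event reads. This number also moves with inclusion, and it understates the change of genes with few reads. Of 51 motor genes measured this way, none reached both 1.5-fold and an adjusted p under 0.05 by limma, against 0.347% of 9232 genes. An unadjusted p below 0.05 was found for 33 of the 51 (limma). Its share over all genes was not counted, so the 33 cannot be read as particular to motor genes. Even at an adjusted p below 0.05, 4234 of all 9232 genes passed (limma). At an adjusted p below 0.05 whatever the size, 9 motor genes rose (17.6%) and 18 fell (35.3%), against 20.7% and 25.1% of all genes. Without DFMO replicate 2, 8 rose and 11 fell. Of these 27 genes, 16 passed with any 1 library left out and 11 did not in at least 1 case. The median log2 difference was -0.04 over the motor genes and -0.01 over all genes. In bulk RNA, fewer cells in a given state and less RNA per cell cannot be told apart.

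Most of the mitotic kinesins measured fell in DFMO. Of 8 genes, 6 fell (KIF20A, KIF20B, KIF11, KIF23, KIF18B and KIF18A), none rose, and KIF22 and KIF15 did not pass the test. Without Control replicate 3 or without DFMO replicate 2, 4 fell, and with median-of-ratios scaling 5 fell, where KIF18A missed (adjusted p = 0.0521, limma). KIF20A, which carries the chromosomal passenger complex to the midzone in late mitosis, had 3.48, 3.36 and 3.50 scaled reads per exon event in the DFMO libraries and 5.46, 5.54 and 5.38 in the Control libraries. The groups were far apart relative to their spread, and the ratio of the means was 0.631. On the log2(1 + reads) scale the difference was -0.52 ± 0.03 (SE; adjusted p = 1.31e-05, limma), which was below 1.5-fold, and with 0.1 in place of 1 it was -0.63 and KIF20A was called.

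KIF20B, another late mitotic kinesin, had 1, 0.954 and 0.999 scaled reads per exon event in the DFMO libraries and 1.54, 1.52 and 1.45 in the Control libraries. The groups did not overlap, and the log2 difference was -0.32 ± 0.03 (SE; adjusted p = 1.07e-04, limma). KIF11 is the motor that pushes the spindle poles apart. It had 3.86, 3.66 and 3.80 scaled reads per exon event in the DFMO libraries and 4.4, 4.61 and 4.66 in the Control libraries, a log2 difference of -0.22 ± 0.03 (SE; adjusted p = 8.43e-04, limma). KIF23 itself, whose exons changed, differed by -0.14 on the log2 scale, and KIF18A and KIF18B, which control microtubule length at the plus end, by -0.11 and -0.12. KIF18A passed without Control replicate 2 and missed without each of the others (adjusted p from 0.0567 to 0.116), and KIF18B did not pass without Control replicate 3 or DFMO replicate 2 (from 0.0511 to 0.054, limma). KIF22, a chromosome arm motor, differed by -0.03 and KIF15, which acts beside KIF11 on the spindle, by -0.01.

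**Figure D3:**
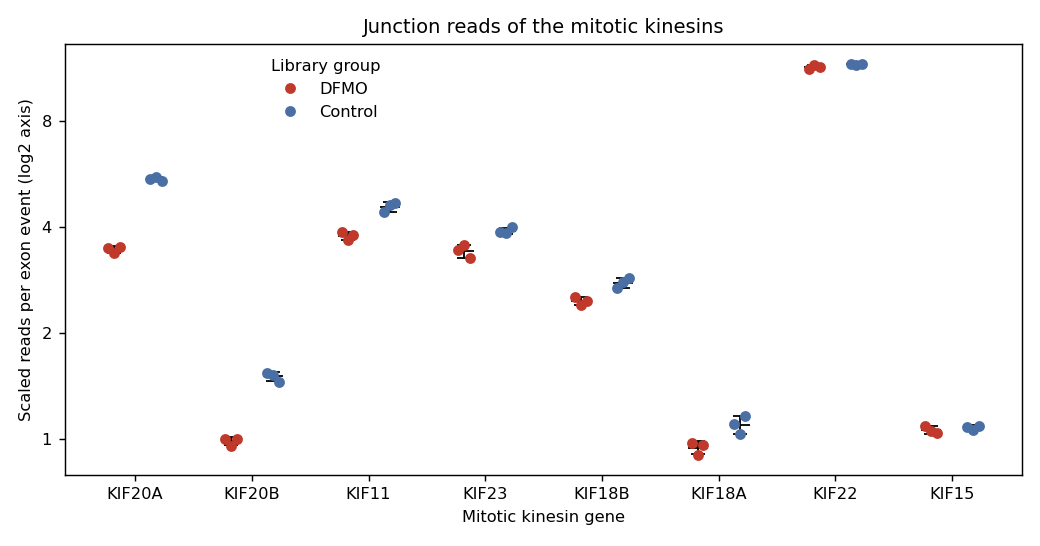
Scaled reads per exon event (per 1e+06 event reads) in each library for the 8 mitotic kinesins, on a log2 axis; points are libraries, black bars are the group mean and SD. DFMO points lie below Control points in KIF20A, KIF20B, KIF11, KIF23, KIF18B and KIF18A, and overlap with them in KIF22 and KIF15.

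Of the genes in other role groups, 4 that fell by small amounts are described here, picked after their values were seen. KIF4A, also a kinesin of dividing cells outside the mitotic group, differed by -0.03 and did not pass the test (adjusted p = 0.445, limma). KIFC1, which crosslinks spindle microtubules, differed by -0.14, KIF2A and KIF2C, which depolymerise microtubules, by -0.11 each, and KIF14, a kinesin of the midbody, by -0.10 (adjusted p = 0.0131, 0.0336, 0.0299 and 0.0282, limma). With median-of-ratios scaling neither KIF2A nor KIF2C passed (adjusted p = 0.0612 and 0.0515, limma), and with exon events of at least 10 scaled reads KIFC1 did not (0.0562). KIF2A did not pass without any 1 of the DFMO libraries, or without Control replicate 1 or Control replicate 2 (adjusted p from 0.055 to 0.108, limma). KIF2C passed without Control replicate 1 and missed without each of the others (adjusted p from 0.0506 to 0.0968, limma). KIF14 did not pass without any 1 of the Control libraries, or without DFMO replicate 1 or DFMO replicate 2 (adjusted p from 0.0579 to 0.0875, limma). KIF26A and KIFC3 fell by 0.26 and 0.14. KIF26B, which is close to KIF26A, fell by 0.13 and missed without Control replicate 2 or 3 or DFMO replicate 2 (adjusted p from 0.0739 to 0.107, limma), or with a pseudocount of 0.1 (0.0713). KIF26A is an atypical kinesin without ATPase activity. It had 4.50, 4.65 and 4.97 scaled reads per exon event in the DFMO libraries and 5.76, 6.06 and 5.94 in the Control libraries, with no overlap.

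Transport kinesins did not move in 1 direction. Among the kinesin-1 genes, the light chain KLC4 and the neuronal heavy chain KIF5A rose by 0.21 and 0.15, while the light chain KLC1 and the ubiquitous heavy chain KIF5B fell by 0.10 and 0.11 (adjusted p from 0.00189 to 0.0177, limma). KLC1 missed without Control replicate 2 or without DFMO replicate 1 or 2 (adjusted p from 0.0565 to 0.0601, limma), and with exon events at a mean of at least 95% (0.0657). With exon events of at least 10 scaled reads, KIF5B differed by -0.04 and missed (adjusted p = 0.327, limma). KLC4 had 1.06, 0.962 and 0.964 scaled reads per exon event in the DFMO libraries and 0.744, 0.659 and 0.755 in the Control libraries, with no overlap. KIFAP3, of kinesin-2, had 1.6, 1.45 and 1.55 in the DFMO libraries and 1.20, 1.20 and 1.17 in the Control libraries, a log2 difference of 0.21 ± 0.03 (SE; adjusted p = 9.56e-04, limma). The other kinesin-2 genes KIF3A, KIF3B and KIF3C did not pass the test, and neither did KIF1A, KIF1B and KIF1C. KIF9 rose by 0.16 (adjusted p = 0.0439, limma), and it did not pass without any 1 of Control replicates 1, 2 and 3 and DFMO replicates 1 and 2 (adjusted p from 0.0604 to 0.135), or with a pseudocount of 0.1 (0.0576). KIF21A had 10.9, 11 and 10.8 scaled reads per exon event in the DFMO libraries and 10.1, 10.6 and 10.6 in the Control libraries, a log2 difference of 0.07 that did not pass the test (adjusted p = 0.0783, limma). With median-of-ratios scaling it was 0.09 and passed (adjusted p = 0.0269, limma). KIF4A and KIF7, the other kinesin-4 genes measured, differed by -0.03 and -0.02 and did not pass.

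**Figure D4:**
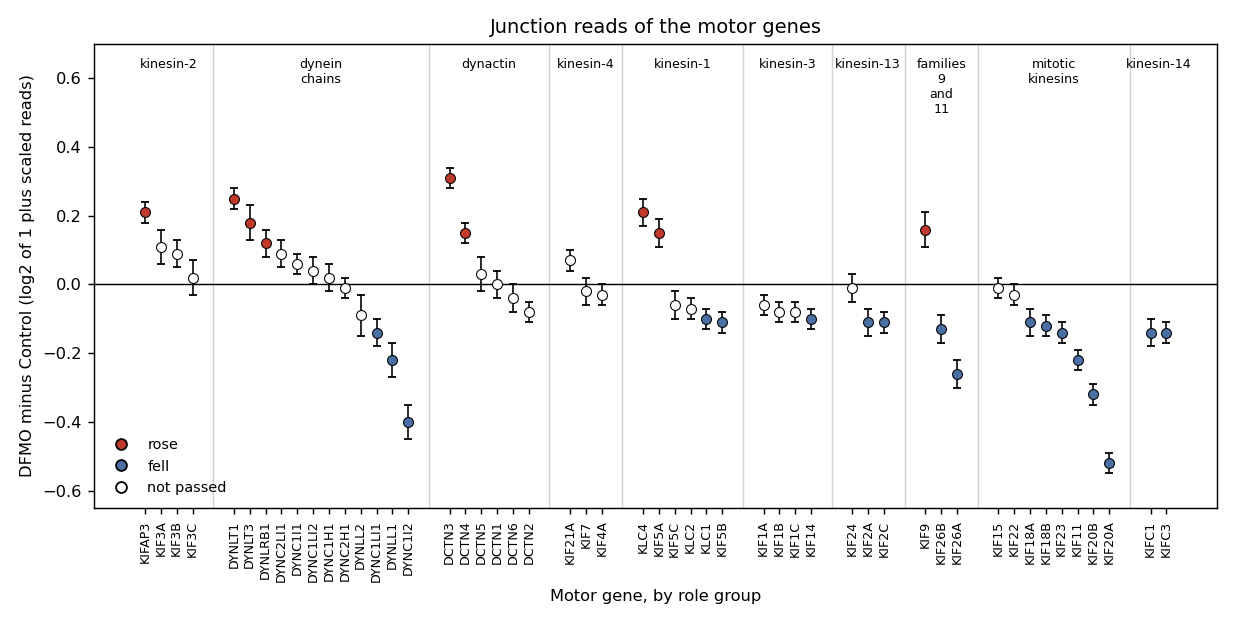
Difference in junction reads (DFMO minus Control, on the scale log2 of 1 plus scaled reads per exon event) for the 51 motor genes measured, by role group; bars are SE, and the fill shows genes that rose, fell or did not pass at an adjusted p below 0.05. KIF20A is lowest at -0.52 and DCTN3 highest at 0.31.

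Among the dynein and dynactin genes, several smaller subunits moved, in both directions, while the heavy chains and DCTN1 did not pass the test. DCTN3, the p24 subunit of the dynactin shoulder, had 11, 11.7 and 11.5 scaled reads per exon event in the DFMO libraries and 9.36, 8.83 and 8.98 in the Control libraries. All DFMO values were higher, and the log2 difference was 0.31 ± 0.03 (SE; adjusted p = 1.69e-04, limma). The dynein light chain DYNLT1 had 9.73, 9.47 and 9.73 in the DFMO libraries and 8.29, 7.86 and 7.60 in the Control libraries, a log2 difference of 0.25 ± 0.03 (SE; adjusted p = 5.07e-04, limma). DYNLT3, DYNLRB1 and DCTN4 rose by 0.18, 0.12 and 0.15. DYNLRB1 missed without Control replicate 2 or DFMO replicate 1 (adjusted p from 0.0921 to 0.0978, limma). DYNLT3 rests on 1 exon event and did not pass when replicate 1 or 2 of either group was left out (adjusted p from 0.055 to 0.0669, limma).

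Against these, the intermediate chain DYNC1I2 and the light chain DYNLL1 fell. DYNC1I2 had 0.440, 0.314 and 0.302 scaled reads at its single exon event in the DFMO libraries and 0.847, 0.721 and 0.765 in the Control libraries, a log2 difference of -0.40 ± 0.05 (SE; adjusted p = 3.27e-04, limma), and of -0.97 with 0.1 in place of 1. DYNLL1 had 17.1, 16.7 and 16.3 in the DFMO libraries and 20.6, 20.6 and 18.6 in the Control libraries, a log2 difference of -0.22 ± 0.05 (SE; adjusted p = 0.00466, limma). Both genes have processed pseudogenes in the annotation that could share reads with them, which was not tested. DYNC1LI1 fell by 0.14, and it missed without Control replicate 1 or 3 or DFMO replicate 1 (adjusted p from 0.0531 to 0.0604, limma). The heavy chains DYNC1H1 and DYNC2H1 differed by 0.02 and -0.01, and DCTN1 by 0.00, none of which passed the test.

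Motor function also depends on adaptors and regulators whose symbols do not match the rule, and 30 genes of a list of these had 89 tested events. Of the 89, 2 were called (2.25%, against 3.04% of all tested events of the series), 1 of 51 exons (1.96%, against 3.45% of all exons) and 1 of 9 introns (11.1%, against 3.8% of all introns). Both were higher and both were in SPAG9, with the exon inside the intron, so the 2 calls may share reads. This gene encodes JIP4, a scaffold that binds kinesin light chain and dynactin. A 39-nt SPAG9 exon was included at 60.5%, 64.5% and 60.3% in the DFMO libraries and at 38.3%, 30.5% and 31.7% in the Control libraries. Inclusion was higher in every DFMO library, and the difference was 28.3 points (adjusted p = 2.30e-04, limma). The 2160-nt intron around it was retained at 21.9%, 23.1% and 14.5% in the DFMO libraries and at 8.92%, 4.95% and 9.40% in the Control libraries, a difference of 12.1 points (adjusted p = 2.09e-04, limma). The end listed first had 40, 40 and 26 reads in the DFMO libraries and 23, 14 and 18 in the Control libraries, and the other end had 14, 5 and 10 in the DFMO libraries and 6, 3 and 18 in the Control libraries. The ends were uneven in all but Control replicate 3, and the lowest p of the authors' test of balance was 0.00462.

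The other 5 adaptor events with an adjusted p below 0.05 differed by less than 10 points, and 4 of them were higher and 1 lower in DFMO. The lower one was a 101-nt acceptor form of MAP4, a microtubule-associated protein, used at 76.6%, 67.1% and 80.7% in the DFMO libraries and at 89.7%, 81.3% and 82.7% in the Control libraries. The groups did not overlap, the difference was -9.78 points (adjusted p = 0.0347, limma), and it missed without Control replicate 1, DFMO replicate 1 or DFMO replicate 2 (adjusted p from 0.121 to 0.427). A 1252-nt intron of NUMA1, which anchors dynein at the spindle poles, was retained at 8.03%, 8% and 8.17% in the DFMO libraries and at 4.77%, 4.30% and 3.92% in the Control libraries, a difference of 3.74 points (adjusted p = 0.0091, limma).

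MAP2, a dendritic microtubule-associated protein, had the other 3, all exons. The 3 lie side by side, and reads skipping them were similar in number, so they are not independent. These reads numbered 494, 510 and 531 in DFMO replicate 1 and 528, 538 and 547 in Control replicate 1. The 3714-nt exon, which separates the high-molecular-weight forms of MAP2 from the short ones, was included at 20.9%, 21.2% and 21.4% in the DFMO libraries and at 11.2%, 13.1% and 13.9% in the Control libraries (adjusted p = 0.00724, limma). Its neighbours of 191 and 132 nt rose by 7.33 and 6.52 points (adjusted p = 0.0165 and 0.0224, limma), and each of them missed in 4 of the 6 cases when 1 library was left out, with adjusted p-values up to 0.064 and 0.0915. By junction reads, 43 genes of this list were measured and none was called by limma, against 0.347% of all genes. An unadjusted p below 0.05 was found for 26 of the 43 (limma). Its share over all genes was not counted, so the 26 cannot be read as particular to this list. The shares at an adjusted p below 0.05 can be compared. Of the 43, 9 rose (20.9%) and 15 fell (34.9%), against 20.7% and 25.1% of all genes. ACTR1B, the beta form of the actin-like filament of dynactin, had 3.76, 3.89 and 3.86 scaled reads per exon event in the DFMO libraries and 2.41, 2.38 and 2.30 in the Control libraries. MAPK8IP3, which encodes the axonal scaffold JIP3, had 2.49, 2.45 and 2.40 in the DFMO libraries and 1.41, 1.44 and 1.55 in the Control libraries. TPX2, a spindle assembly factor that recruits KIF11, had 9.52, 9.82 and 10.1 in the DFMO libraries and 12.5, 12.5 and 12.8 in the Control libraries. CALCOCO1 had 1.06, 1.10 and 1.10 in the DFMO libraries and 0.599, 0.629 and 0.727 in the Control libraries. The log2 differences of the 4 genes were 0.51, 0.47, -0.33 and 0.33, and no DFMO value overlapped a Control value in any of them.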

How the data were processed

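The deposited table gives, per the file headers, a percent for each splicing event and library, and beside it a quality text with a coverage score and the reads for inclusion and exclusion. The genome build was GRCh38, per the submitters' processing notes; which aligner and quantifier were used is not given in the sources used here. All columns of per-library values were used (0 left out). The percents, recomputed from those reads, lay within 0.5 points in 100% of cases, but the reads seem to be totals split by the percent. Replicates varied by 1.88 to 2.11 times counting variance.

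Each event needed at least 10 reads and a LOW, OK or SOK score in all 6 libraries, and a mean percent of 5 to 95. The log2 odds ((inclusion reads + 0.5) over (exclusion reads + 0.5)) were modelled over all such events with limma 3.58.1 in R 4.3.3 (robust empirical Bayes, variance trend on the expected counting variance, two-sided), with Benjamini-Hochberg adjustment within each of 4 classes. The first form of a splice-site event is 100 minus the others and was left out of tests, a choice made after seeing the table (425 motor events). The prior degrees of freedom had a median of 10.1 for exons and were infinite for 3367 of 3684 introns and most splice sites, so single introns borrow nearly all their variance from the trend. The junction-read proxy was scaled to 1e+06 event reads and modelled with limma, also with a trend of variance on mean. Sequences and transcript places are from GENCODE release 29. The scripts were tested on simulated data. Alternatives covered the offset, trend, scale, filters, adjustment, size threshold, replicate block and leaving out each library.

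The members, role groups, adaptor list and marker list were chosen with earlier results of these data known. Named events are all called ones, those with an adjusted p below 0.05, and the widest difference in each role group; named genes by the proxy are the 6 highest and 6 lowest that passed and the widest of each role group; for the adaptors, up to 4 of each. Other events of KIF21A, KIF23, KLC1, KIF1B, DYNC1LI2, MAP2 and the microexons, and other genes by the proxy, were added after their values were seen. Replicate numbers did not pair the libraries. 1 marker of the marker list is not reported here.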

Additional observations from a re-analysis of the deposited data

How the results depend on the processing

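The 3 motor exon calls became 0 without the variance trend, where the whole series gave 14 in place of 259, and were 1 to 3 when 1 library was left out, with 1 without DFMO replicate 2. The motor intron call became 0 without the trend and 0 among introns with balanced ends, 2 with no size threshold, and 0 or 1 when 1 library was left out. No acceptor or donor site was called under any alternative run. Without the trend the adjusted p was 0.066 for the KIF21A 21-nt exon, 0.113 for the KIF23 137-nt exon, 0.243 for the KIF23 42-nt exon and 0.113 for the KIF4A intron (limma); the KIF21A exon kept its call under all other alternatives run. The KIF23 42-nt exon also missed the threshold with an offset of 1 (0.0561) and with adjustment over all 4 classes (0.052). Motor genes called by junction reads were 2 with a pseudocount of 0.1 and 27 with no size threshold, against 0. Among single named results, 374 settings gave the same direction and call, 38 lost the call and 3 gained one. The 374 include results that were not called in the main fit and stayed so, so this number does not measure stability. For example, the KIF21A 2654-nt intron and 65-nt exon were counted as the same without the trend, at adjusted p-values of 0.171 and 0.167 (limma). The KIF2C 123-nt exon turned to 0.273 points without Control replicate 1 and ran down to -3.66 points without Control replicate 3. With the replicate block, 2 motor exons were called and the KIF23 42-nt exon missed (0.0547), as did KIF9 and KIF26B by junction reads (0.0609 and 0.0636). Same-numbered libraries did not deviate together (r of -0.02, -0.002 and -0.007 over exons). Only 1 motor gene with at least 10 scaled reads per event was a mitotic kinesin, and it did not pass. Read depth limits events such as the KIF4A intron, with 26 reads in its lowest library.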
